A study of Saccharomyces cerevisiae with 3 samples.

Results

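The features described here are those of an intergenic yeast array that carry the names of the open reading frames (ORFs) nearest to the centromeres. Systematic ORF names of Saccharomyces cerevisiae give the chromosome by a letter, the arm by L or R, and a number that counts outward from the centromere. Every feature whose ORF number lay between 001 and 015 was taken, with suffix letters and tiles allowed. This gave 467 of the 6399 features on the array, out of 5806 with an ORF name, and left 5339 other ORF-named features for comparison. The rule used names and no measured value, but it was set with earlier results of these data known. The 467 features bore 457 distinct ORF names, spread over the 32 arms of 16 chromosomes with 8 to 18 features on an arm. Tiles of 10 ORFs, 2 for each, made up 20 of them, and 15 carried a suffix letter. A feature of an intergenic array lies beside the ORF it is named for, and its name alone does not say on which side.

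Budding yeast has point centromeres, short DNA elements that hold a single nucleosome with the histone H3 variant Cse4 and carry the kinetochore. Cohesin, the ring complex that joins sister chromatids, and condensin are enriched in the chromatin around them, and the centromeres of all chromosomes cluster together in the nucleus. Genes of RNA polymerase III (Pol III), above all the tRNA genes, are known to gather condensin and cohesin loaders. Maf1 is the general repressor of Pol III and acts when nutrients or TORC1, the kinase complex that rapamycin inhibits, fall away.

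The cells carried myc-tagged Maf1 and were grown in YPD, a rich medium, to an optical density of 0.6 at 600 nm. They were left untreated or were given 0.2 ng/ul rapamycin for 30 min or 120 min. DNA from crosslinked chromatin that had been immunodepleted with antibodies to the myc tag was labelled with Cy5 and hybridized against Cy3-labelled DNA of the input chromatin. Each of the 3 deposited columns, 1 for each condition, is the authors' mean of 3 replicates. No untagged strain or mock depletion was analysed here.

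Values are given as centred scores, that is, the deposited value minus the median of its column over all features. The scale and the direction of the score are not stated, so a high score is not read as more or as less Maf1. With 1 averaged column for each condition there is no replicate spread and no test, and intensities were not used, so the depth behind a value is unknown. The columns were not equally wide, with robust standard deviations (scaled median absolute deviations) of 0.388, 0.442 and 0.512 in the order untreated, 30 min and 120 min. A feature was counted as far from the column median when it lay more than 3 robust SDs above or below it, which is a centred score of 1.16, 1.33 and 1.54 in turn. Of the 467 features, 463 had a value in every column. Those named for FLR1, YIA6, GAT4 and ERV25 had none.

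As a group the centromere-near features sat at the middle of each column. Their median was 0.00 in untreated cells, with quartiles of -0.26 and 0.26, and 236 of 463 (51.0%) lay above the column median, against 50.0% of all features. At 30 min the median was 0.01, with quartiles of -0.25 and 0.28, and 237 (51.2%, against 50.0%) lay above it. At 120 min the median was -0.01, with quartiles of -0.35 and 0.32, and 228 (49.2%, against 50.0%) lay above it. These shares are close to the background in all conditions. The other ORF-named features had medians of -0.03, -0.03 and -0.04, and the 589 measured features nearest the telomeres had medians of -0.04, 0.00 and -0.06.

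The median of the group changed little between the conditions. Between untreated cells and 30 min it shifted by 0.00, and 236 features (51.0%) had a higher centred score, against 49.5% of all features. Between untreated cells and 120 min the shift was 0.03, with 243 (52.5%) higher against 56.1%. From 30 to 120 min it was 0.04, with 249 (53.8%) higher against 56.9%. The first 2 of these comparisons share the untreated column and the last 2 share the column of 120 min. All features together changed by medians of 0.00, 0.07 and 0.07. Across the 463 features, which share the arrays of each column, untreated scores correlated with those of 30 min at Pearson r = 0.517 and with those of 120 min at 0.488, and scores of 30 and 120 min correlated at 0.487. Other ORF-named features gave 0.484, 0.495 and 0.519.

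Few centromere-near features stood far from the middle before 120 min. In untreated cells 1 of 463 (0.216%) lay above the limit, against 1.27% of all features, and 2 (0.432%) lay below it, against 1.19%. At 30 min none lay above it, against 0.111%, and none below it, against 0.700%. At 120 min 10 (2.16%) lay above, against 4.24%, and 12 (2.59%) lay below, against 1.67%. With quantile normalization these counts of 120 min were 2 above and 10 below. The background for high scores holds the tRNA-named features of the array, which are not ORF-named. Among the other ORF-named features 33, 4 and 86 lay above the limit in turn and 72, 42 and 91 lay below it, out of 5240, 5238 and 5236 measured. The count of 0 below the limit at 30 min depended on the scaling, since quantile normalization of the columns put 3 centromere-near features there. No centromere-near feature lay above the limit in all columns, and none lay above it in 1 column and below it in another.

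**Figure D1:**
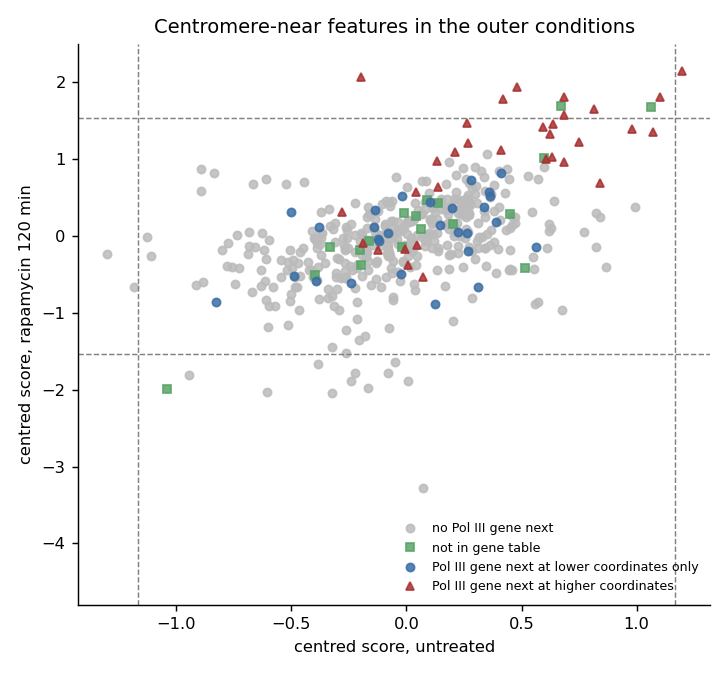
Each point is 1 of the 463 measured centromere-near features, with the centred score in untreated cells on the horizontal axis and after 120 min of rapamycin on the vertical axis; dashed lines mark 3 robust SDs of each column, and colours and shapes give the class of neighbouring gene in the gene table. Of the 10 points above the upper dashed line 8 are features with a Pol III gene next to their ORF at higher coordinates, and the lowest point, at -3.28, is OSH6.

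Most of the high scores at 120 min belonged to features named for an ORF next to a Pol III gene. This class was looked at because features beside Pol III genes had scored high in earlier results of these data. Its high scores are therefore a description and not independent support. Gene order was read from a table of RefSeq genes (assembly R64), in which 449 of the 467 features were found by ORF name, and in which the ORF numbers followed the gene order in 398 of 398 adjacent pairs that could be compared. A Pol III gene was the next gene at higher coordinates for 32 of the 463 measured features (6.91%), against 3.80% of the other ORF-named features. Such a neighbour was uncommon in the innermost ORFs, with 4 of 157 features (2.55%) of numbers 001 to 005, 16 of 158 (10.1%) of 006 to 010, and 12 of 148 (8.11%) of 011 to 015. These 32 features had medians of 0.45 untreated, 0.50 at 30 min and 1.17 after 120 min, and 27, 27 and 26 of them lay above 0. Of the 10 features above the limit at 120 min, 8 were of this class, and the remaining pair, YIL015C-A and YOL013W-A, was not in the gene table. The class behaved alike elsewhere in the genome, with medians of 0.53, 0.44 and 1.26 over 199 other features, of which 76 made up most of the 86 above the limit. The difference between the classes near and away from the centromeres was not tested.

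The scores differed with the side on which the neighbour lay. Where the only adjacent Pol III gene lay at lower coordinates the 28 centromere-near features had medians of 0.11, -0.03 and 0.08, and they ranged from -0.88 to 0.82 at 120 min, so none passed the limit. The 385 features with no Pol III gene next to them had medians of -0.04, -0.02 and -0.05, and none of them was above the limit in any column. The 18 features that were not in the gene table had medians of 0.05, -0.04 and 0.12.

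**Figure D2:**
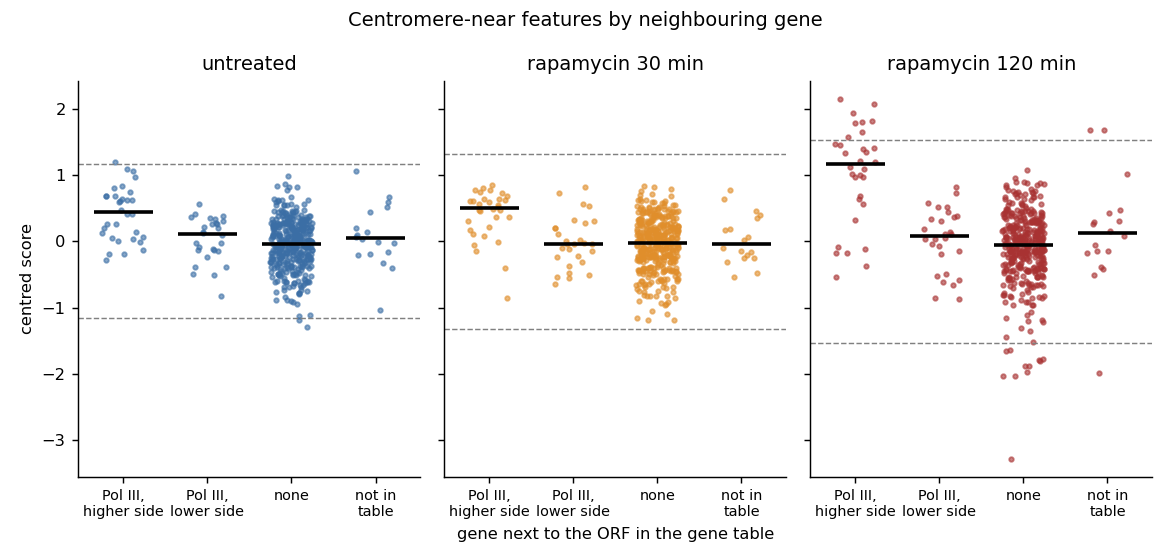
Points are the centred scores (vertical axis) of single centromere-near features in the 3 conditions, 1 panel for each, arranged by the gene next to the ORF; black bars are medians and dashed lines 3 robust SDs. The first class, with a Pol III gene at higher coordinates, has its median at 0.45, 0.50 and 1.17, while the other classes stay between -0.05 and 0.12.

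The 5 highest features of this class at 120 min were also the highest of all centromere-near features in that column. CTK2, which encodes the cyclin subunit of the kinase complex CTDK-I and lies next to the tRNA gene SUP51, scored 1.20 untreated, 0.60 at 30 min and 2.15 after 120 min. It was the only centromere-near feature above the limit in untreated cells. VAC8, a vacuolar membrane protein gene, scored -0.20, 0.80 and 2.07, the largest rise of the group between untreated cells and 120 min. APC11, which encodes the RING subunit of the anaphase-promoting complex, scored 0.48, 0.74 and 1.94. YCR006C, beside the tRNA gene SUF2 on the right arm of chromosome III, scored 1.10, 0.49 and 1.82. RPA135, which encodes a large subunit of RNA polymerase I, scored 0.68, 0.63 and 1.81. All of these features were highest at 120 min, and in CTK2, YCR006C and RPA135 the score at 30 min was the lowest of the 3.

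Not every feature with a tRNA gene beside its ORF scored high. FOX2, which encodes the multifunctional enzyme of peroxisomal fatty acid oxidation, scored 0.07, -0.40 and -0.53. REC8, which encodes the meiotic cohesin subunit, scored 0.01, 0.11 and -0.37, and SPO13, a meiosis-specific regulator of how kinetochores attach, scored -0.12, -0.01 and -0.18. HXT2, a hexose transporter gene, scored -0.01, 0.08 and -0.17, and ACH1, an acetyl-CoA hydrolase gene, scored 0.05, 0.22 and -0.12. These are the 5 lowest of the 32 at 120 min, and none reached the limit in any column. The 22 features between these and the highest ranged from -0.09 to 1.79 at 120 min.

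Among the 32 features the strand of the neighbouring Pol III gene went with the score, a split that was made after the values were seen. Where that gene was on the Crick strand (C), and so faced the ORF with its 3′ end, 18 features had medians of 0.63, 0.61 and 1.43, and 17 of 18 lay above 0 at 120 min. Where it was on the Watson strand (W), and so faced the ORF with its 5′ end, 14 features had medians of 0.10, 0.19 and 0.60, and 9 of 14 lay above 0. The 2 ranges overlapped at 120 min, from -0.18 to 2.15 and from -0.53 to 1.81. Features away from the centromeres gave 1.44 over 98 and 0.63 over 101 at 120 min. By the ORF's own strand as well, the median at 120 min was 1.52 for the 10 centromere-near features with both genes on the Crick strand, 1.32 for the 8 convergent pairs, 0.97 for the 9 divergent pairs and -0.09 for the 5 with both on the Watson strand. The 10 with both genes on the Crick strand all lay between 1.21 and 2.15, and the 5 with both on the Watson strand all lay between -0.17 and 0.69, so these small groups did not overlap. The same orientations away from the centromeres had medians of 1.46, 1.43, 1.54 and 0.33. There the features with both genes on the Crick strand, from -0.87 to 2.74 over 61, overlapped widely with those with both on the Watson strand, from -3.03 to 2.21 over 50.

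The rise of the class came late. Its median change was 0.01 over the first 30 min, with 16 of 32 higher, whereas over 120 min it was 0.65, with 26 of 32 higher, and from 30 to 120 min it was 0.73, with 27 higher. Its size depended on how the columns were scaled. With the columns scaled to equal spread the change from untreated cells to 120 min was 0.39. With quantile normalization it was 0.15, and 0.21 from 30 min. The 95% intervals of these last medians over features ran from -0.06 to 0.39 in both cases. They describe features that share the arrays of each column, not replicates, and so are no test of the change. The centromere-near features with no Pol III neighbour changed by 0.01 to 30 min and by -0.01 to 120 min.

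Of the 12 features below the limit at 120 min 11 had no Pol III gene next to the ORF on either side, and YML010C-B was not in the gene table. This is the common class, which held 83.2% of all measured centromere-near features. OSH6, which encodes an oxysterol-binding protein homologue that carries phosphatidylserine between membranes, scored 0.07 untreated, 0.08 at 30 min and -3.28 after 120 min. OTU2 scored -0.32, -0.44 and -2.04. DRS1, which encodes a DEAD-box helicase of 60S ribosome assembly, scored -0.60, -0.24 and -2.03. YML010C-B scored -1.04, -0.21 and -2.00, and was among the 5 lowest of the untreated column too. PRP2, which encodes an RNA helicase of the spliceosome, scored -0.17, 0.82 and -1.98, and stood among the 5 highest at 30 min. The 5 steepest falls from untreated cells also took in RLP24, another 60S assembly gene, with 0.01, 0.05 and -1.88, and EMC6, of the endoplasmic reticulum membrane complex, with -0.08, -0.47 and -1.78. The next ORF beyond RLP24, that of the telomere-capping protein Ten1, scored 0.68, 0.63 and 1.58 and lies beside a tRNA gene.

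These low features were unevenly placed. All 12 lay on chromosomes VIII to XIV, with 4 on XI, 3 on XII, 2 on XIV and 1 each on VIII, X and XIII, where 44.7% of the measured centromere-near features lie. That range was chosen after the values were seen. Of the 91 other ORF-named features below the limit 64 (70.3%) lay on the same chromosomes, with 27 on XII. The remaining low features were LAC1, a ceramide synthase gene, at -1.81, URB1, of 60S assembly, at -1.66, RSC4, of the RSC chromatin remodeller, at -1.89, VPS27, of the ESCRT pathway, at -1.79, and MRX12 at -1.64. In untreated cells these 12 ranged from -1.04 to 0.07 and at 30 min from -0.57 to 0.82, so none had passed the limit before. Whether spot quality or array position moved with them was not tested, since neither was used here.

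Outside these tails the named features of the earlier columns were spread over the arms. In untreated cells the high features besides CTK2 and YCR006C were TIM10, a mitochondrial import chaperone gene beside a tRNA gene, at 1.07, YOL013W-A at 1.06 and AIM45 at 0.99. The lowest were SEC9, which encodes a SNARE of exocytosis, at -1.30, SPO75, a sporulation gene, at -1.18, NAS2, a proteasome assembly chaperone gene, at -1.13, IRC22 at -1.11 and YML010C-B at -1.04. Of these SEC9 and SPO75 were past the limit. By 120 min SEC9 stood at -0.24 and NAS2 at -0.01, within the quartiles of the group.

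At 30 min the highest were YAP3, which encodes a bZIP factor and lies beside a tRNA gene, at 0.85, TFC3 at 0.84, PRP2 at 0.82, ATO2 at 0.82 and VAC8 at 0.80. The lowest at 30 min were BIL2 at -1.20, HTA2, a histone H2A gene, at -1.19, MAD3, of the spindle checkpoint, at -1.16, YRB1, which encodes the Ran-binding protein of nuclear transport, at -1.10 and NEM1, a nuclear envelope phosphatase gene, at -1.06. None of these passed the limit of 1.33.

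The 5 largest shifts in each direction between untreated cells and 30 min all crossed 0. SEC9 changed by 1.61, SFT1, a Golgi SNARE gene, by 1.35, a tile of DSF2 by 1.24, CUL3, a cullin gene, by 1.01 and UGA2, of GABA breakdown, by 1.01. In the other direction a tile of TIR2, a cell wall mannoprotein gene, changed by -1.07, DIA4 by -1.06, STF2 by -1.04 and RET3, which encodes a coatomer subunit, by -0.90, and GAT3, a GATA-type zinc finger gene, went from 0.55 to -0.45. SFT1 went on to 0.87 at 120 min, a change of 1.76 from untreated cells. GSY1, a glycogen synthase gene, stayed low at -0.83 and -0.73 and then stood at 0.82, and TMA22, a ribosome-associated protein gene, went from -0.89 and -0.30 to 0.59.

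Distance from the centromere made little difference to the median levels within the 15 numbers. The medians of numbers 001 to 005 were -0.05, 0.02 and -0.03 over 157 features, those of 006 to 010 were -0.01, -0.02 and -0.05 over 158, and those of 011 to 015 were 0.04, 0.02 and 0.07 over 148. Number and score correlated across the 463 features at Pearson r = 0.090, -0.016 and 0.124, a description over points that share arrays and chromosomes. For features in the gene table without a Pol III neighbour the medians were -0.06, 0.01 and -0.07 in the inner bin. They were -0.06, -0.02 and -0.09 in the middle bin and 0.02, -0.04 and 0.00 in the outer bin. The features just inside the boundary, numbers 013 to 015, had medians of 0.04, 0.02 and 0.06 over 93 features. Those just outside it, numbers 016 to 018, had medians of 0.04, 0.05 and 0.01 over 92.

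The counts past the limit differed between the bins at 120 min, where 4.24% of all features lay above and 1.67% below. None of the 157 features of numbers 001 to 005 lay above it and 2 (1.27%) lay below it. Numbers 006 to 010 held 7 above (4.43%) and 6 below (3.80%), and numbers 011 to 015 held 3 above (2.03%) and 4 below (2.70%). The quartiles were -0.42 and 0.20, -0.40 and 0.31, and -0.18 and 0.43 in turn, and so were highest in the outer bin. From 30 to 120 min the median changes were -0.01, 0.04 and 0.11 in the same order. The inner bin held the lowest score of all, that of OSH6. The 7 high features of the middle bin all had a Pol III gene next at higher coordinates, as did 1 of the 3 in the outer bin.

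**Figure D3:**
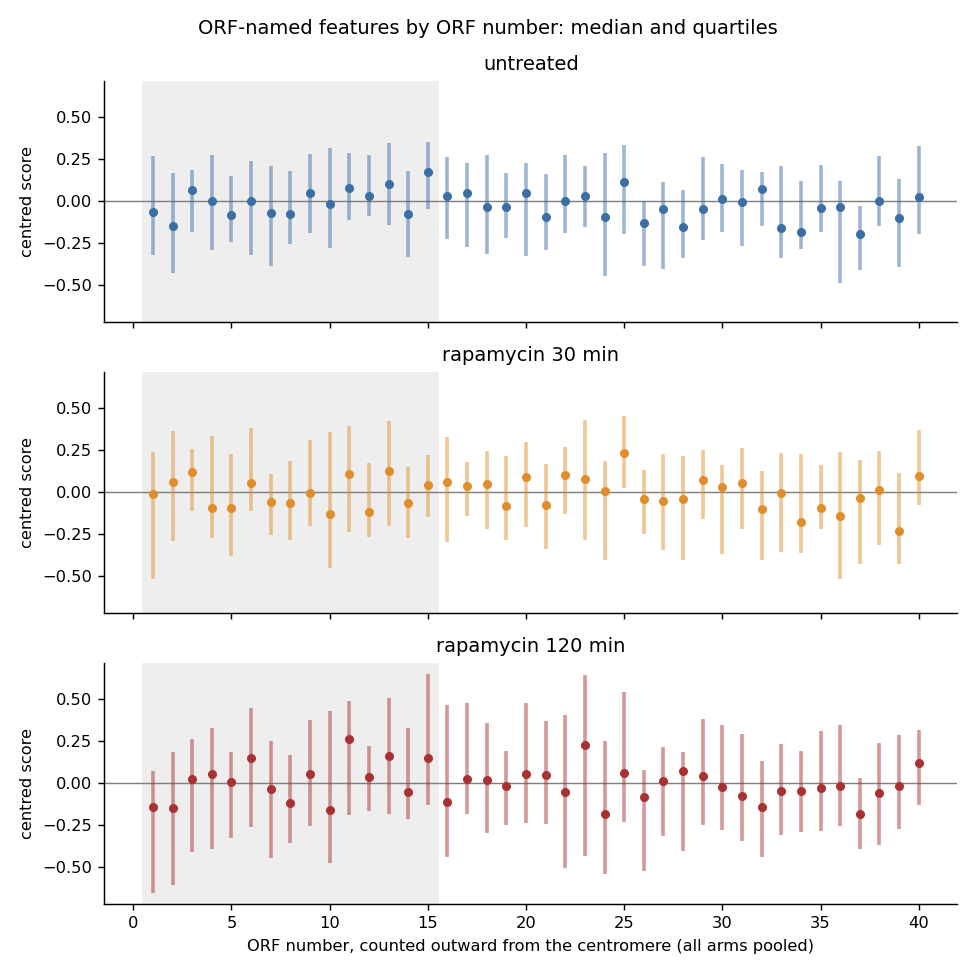
Points are medians and bars quartiles of the centred score (vertical axis) over all arms for each ORF number counted from the centromere (horizontal axis), with 1 panel for each condition and numbers 001 to 015 shaded. Inside the shading the medians lie between -0.16 (number 010) and 0.26 (number 011), both at 120 min. Pooled over the 3 numbers on either side of its edge, 013 to 015 and 016 to 018, the medians lie between 0.01 and 0.06.

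The 32 features of number 001, those named for the ORFs that flank the centromeres, had medians of -0.06 untreated, -0.01 at 30 min and -0.14 after 120 min, and 15, 16 and 9 of them lay above 0. These are 46.9%, 50.0% and 28.1%, against 50.0% of all features in each column. The fewest positive scores were thus seen at 120 min, with 23 of 32 below 0. Such a share was not particular to number 001, since 28.6% of the 28 features of number 037 lay above 0 at 120 min. CIT1, the mitochondrial citrate synthase gene, scored 0.62, 0.73 and 1.33, the highest at 120 min, and was the only feature of the 32 with a Pol III gene, SUF10, next at higher coordinates. TFC3, which encodes a subunit of the Pol III factor TFIIIC, scored 0.61, 0.84 and -0.15. RRP6, of the nuclear exosome, scored 0.40, 0.44 and 0.85, and RER1, a Golgi retrieval receptor gene, scored 0.45, 0.39 and 0.74. With CDC5, the polo kinase gene, which scored 0.67, 0.00 and -0.96, these were the 5 highest of the 32 in untreated cells.

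At the low end VPS1, a dynamin-like GTPase gene, scored -0.22, 0.18 and -1.07, and YLR001C scored -0.29, -0.65 and -0.96. CIT3, a citrate synthase gene, went from 0.28 and -0.09 to -0.81, and ERG26, of ergosterol synthesis, went from -0.06 and -0.02 to -0.79. NTH1, a trehalase gene, was low throughout at -0.50, -0.49 and -0.76, and so were ECM15 at -0.49, -0.75 and -0.66 and OSH7, the paralogue of OSH6, at -0.63, -0.60 and -0.45. IRC22 was the lowest in untreated cells at -1.11 and stood at -0.12 and -0.25 later. RPL14B, a ribosomal protein gene, moved from -0.30 to 0.64 and back to -0.69.

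The other number 001 features lay closer to 0. PHO80, a cyclin gene of phosphate signalling, scored 0.04, 0.70 and 0.22, DOM34, of ribosome rescue, scored -0.09, 0.11 and 0.46, RMD1 scored 0.27, 0.28 and 0.30, and NTH2, a trehalase gene, scored 0.11, 0.22 and 0.18. YCR001W scored 0.27, 0.35 and 0.05 and YCL001W-A scored 0.24, 0.10 and -0.41. LOC1, of mRNA localization and ribosome assembly, scored -0.26, -0.13 and 0.11, YPT7, a vacuolar Rab gene, scored -0.07, 0.10 and -0.03, and HAT1, a histone acetyltransferase gene, scored 0.12, 0.09 and -0.06. QCR10, of the respiratory chain, scored -0.16, -0.07 and -0.05, and PRE3, a proteasome subunit gene, scored -0.37, -0.17 and -0.03. None of these lay outside -0.41 to 0.70.

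Several others had their lowest score at 30 min. SGN1 scored 0.02, -0.82 and -0.03, AVT1, a vacuolar transporter gene, scored -0.38, -0.92 and -0.10, and DNM1, of mitochondrial fission, scored -0.68, -0.77 and -0.13. EFM5, a methyltransferase gene, scored -0.09, -0.69 and -0.54, and MNN1, a Golgi mannosyltransferase gene, scored 0.17, -0.67 and -0.65. YIL001W had no such dip at 0.31, 0.01 and -0.16, and MET14, of sulfate assimilation, had its lowest value in untreated cells at -0.51, -0.12 and -0.18. The centromere-flanking ORFs therefore shared no common course over the conditions.

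The 16 features named for the centromeres themselves, which are not ORF-named, had medians of 0.05, 0.06 and 0.05 and ranged from -0.58 to 0.70, from -0.68 to 0.50 and from -0.82 to 0.76. None passed the limit. Their scores followed the median of the number 001 features of the same chromosome only weakly, with Pearson r = 0.164, 0.316 and -0.046 over 16 chromosomes, a description of points that share arrays.

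The medians of the arms ranged more widely than those of the numbers. They rest on 8 to 18 features each, against 25 to 34 for a number. Medians over fewer features scatter more, which was not allowed for. In untreated cells the highest medians were those of the right arm of XVI at 0.35, the right arm of III at 0.27 and the left arm of III at 0.26, and the lowest were the left arm of VII at -0.41, the left arm of XI at -0.24 and the right arm of X at -0.24. At 30 min the highest were the right arm of XVI at 0.42, the left arm of XV at 0.38 and the left arm of III at 0.37, and the lowest were the right arm of VII at -0.38, the left arm of VII at -0.36 and the left arm of X at -0.29. At 120 min the highest were the left and right arms of III at 0.37 and 0.30 and the left arm of XIII at 0.28, and the lowest were the left arm of VII at -0.54, the right arm of XI at -0.37 and the right arm of VII at -0.32. Both arms of chromosome III were thus near the top, and the left arm of VII among the 3 lowest, in every column. The medians of the left and right arm of a chromosome moved together, with Pearson r = 0.654, 0.828 and 0.559 over 16 chromosomes, and 0.596, 0.793 and 0.474 over the 15 without chromosome III. The arms of a chromosome share the arrays and whatever else a chromosome has in common. The other ORF-named features also differed between chromosomes, with untreated medians from -0.30 on III to 0.14 on XV. Whether the likeness of the arms is particular to the centromere-near features was not tested.

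**Figure D4:**
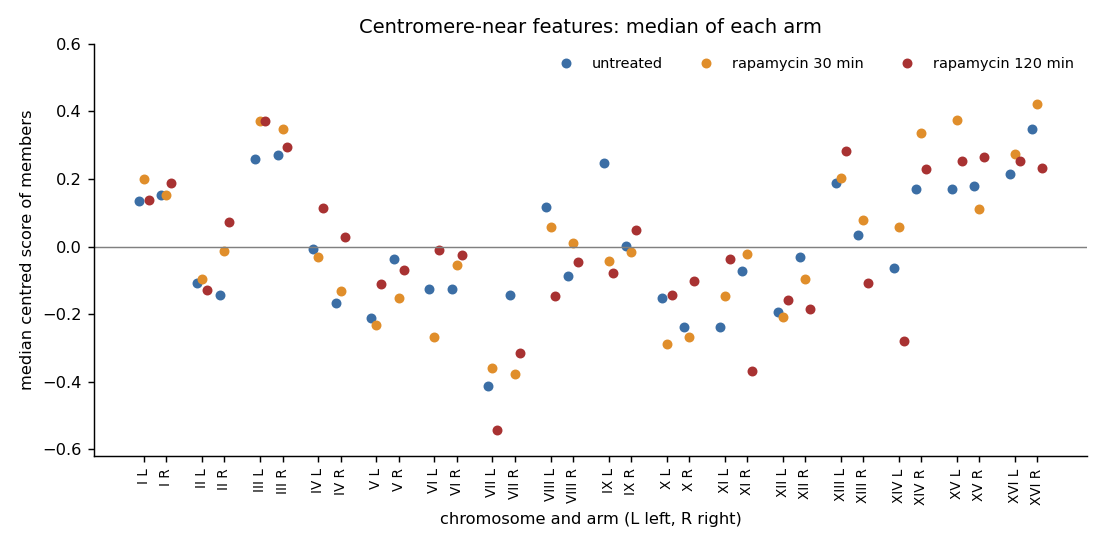
Points are the median centred scores (vertical axis) of the centromere-near features of each of the 32 arms (horizontal axis), coloured by condition. Both arms of chromosome III lie between 0.26 and 0.37 in all conditions, and the left arm of chromosome VII lies between -0.54 and -0.36.

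Chromosome III held the clearest difference between centromere-near features and the rest of their own chromosome. Its 26 centromere-near features had medians of 0.27 untreated, 0.35 at 30 min and 0.31 after 120 min, while the 125 other measured ORF-named features of the chromosome had medians of -0.30, -0.23 and -0.20. The differences were 0.57, 0.58 and 0.51. They were 0.55, 0.57 and 0.49 when features next to Pol III genes and features not in the gene table were left out of both groups. Of the 26 features 23, 22 and 19 lay above 0, and 18 lay above 0 in all columns. On no other chromosome did this difference exceed 0.21 above or 0.41 below, and chromosome III was looked at more closely after its values were seen. The level of its centromere-near features was not particular to it, since those of chromosome XVI had medians of 0.26, 0.30 and 0.25.

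The stretch of chromosome III that stood above the rest of that chromosome was made of many moderate scores rather than a few high ones. On the left arm STP22, of the ESCRT pathway, scored 0.22, 0.18 and 0.16, ILV6, a regulatory subunit gene of branched-chain amino acid synthesis, scored 0.33, 0.45 and 0.85, and SGF29, of the SAGA complex, scored 0.31, 0.39 and 0.43. PGS1, of cardiolipin synthesis, scored 0.28, 0.62 and 0.42, and LDB16, of lipid droplet assembly, scored 0.34, 0.52 and 0.77. On the right arm YCP4 scored 0.27, 0.35 and 0.30, RVS161, an amphiphysin-like gene of endocytosis, scored 0.17, 0.38 and 0.67, and ADY2, an acetate transporter gene, scored 0.38, 0.49 and 0.67. These genes were picked after their values were seen, from among the 18 of 26 features that lay above 0 in all columns. They do not mark the middle of the range. PGS1 was the highest of the 26 at 30 min, and ILV6 and LDB16 were well above the median of 0.31 at 120 min. Among the centromere-near features of chromosome III, GBP2, an mRNA export gene, was the lowest in untreated cells and at 30 min, at -0.61, -0.71 and -0.30. YCL007C was also below 0 in every column, at -0.02, -0.25 and -0.15. The 2 of these centromere-near features with a Pol III gene next at higher coordinates were YCR006C and DFP3. They were the highest of the centromere-near features of the chromosome in the untreated column and at 120 min, DFP3 at 0.69, 0.61 and 0.97.

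The 2 arms of chromosome III were alike within the 15 numbers, with medians of 0.26, 0.37 and 0.37 over 12 features on the left and 0.27, 0.35 and 0.30 over 14 on the right. Beyond them the scores dropped on the right arm, where numbers 016 to 030 had medians of -0.45, -0.17 and -0.20 over 19 features. On the left arm the same numbers stood between, at 0.07, 0.03 and 0.22 over 10 features, and numbers 031 to 045 at -0.32, -0.33 and -0.32 over 9. The feature named for the centromere of chromosome III scored 0.26, 0.50 and 0.51, within the range of the features around it.

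**Figure D5:**
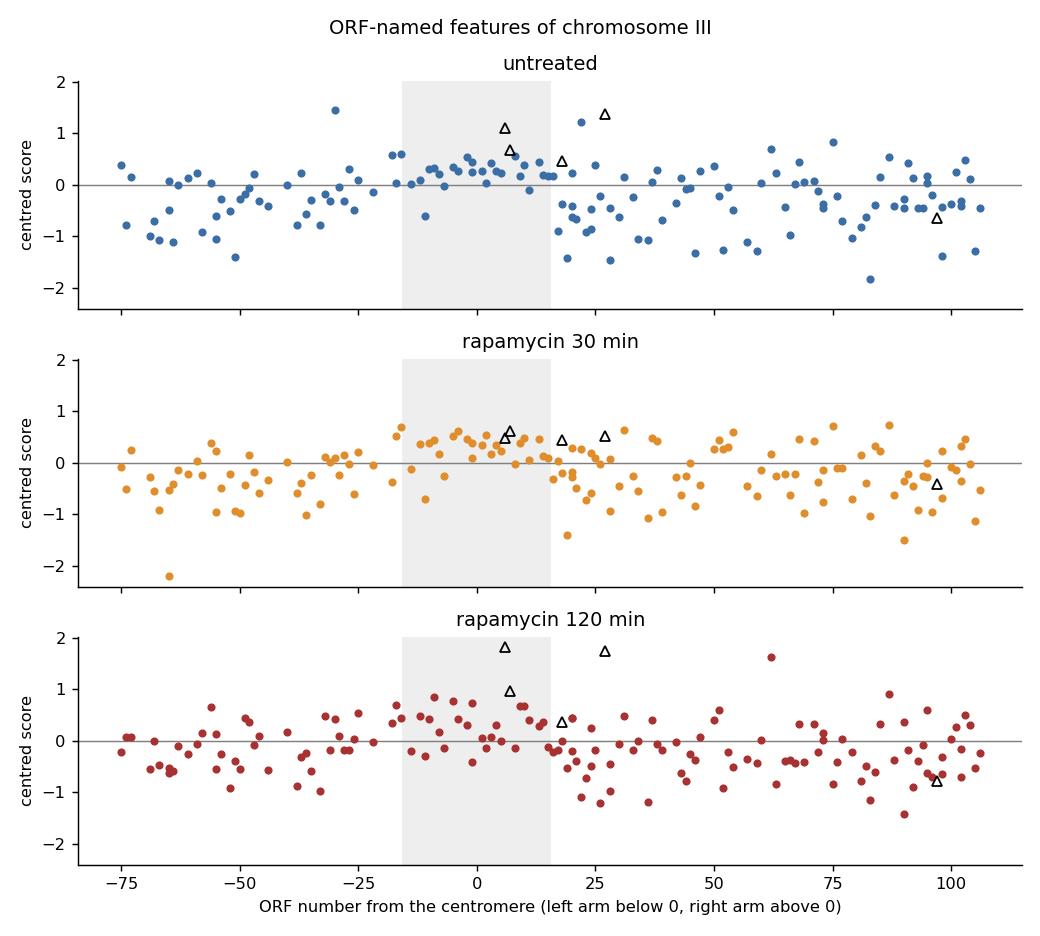
Points are the centred scores (vertical axis) of the ORF-named features of chromosome III by ORF number (horizontal axis, left arm below 0 and right arm above 0) in each condition, with numbers 001 to 015 shaded and open triangles for features with a Pol III gene next at higher coordinates. Inside the shading 23, 22 and 19 of 26 features lie above 0, whereas the rest of the chromosome has medians of -0.30, -0.23 and -0.20.

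Chromosomes X and VII lay on the other side. On chromosome X the centromere-near median minus that of the others was -0.21, -0.27 and -0.05, and on chromosome VII it was -0.17, -0.18 and -0.41. On chromosome VII the 30 centromere-near features had medians of -0.27, -0.38 and -0.53, against -0.10, -0.20 and -0.12 for the 500 others, and 7, 5 and 2 of them lay above 0. The pair above 0 at 120 min was COG7, of Golgi vesicle tethering, at 0.11 and PDR1, a regulator gene of drug resistance, at 0.42, and no feature was above 0 in all columns. Chromosome XVI lay above 0 both near and away from its centromere, with medians of 0.26, 0.30 and 0.25 over 33 centromere-near features and 0.09, 0.09 and 0.05 over the others, of which 402 were measured at 120 min, and 29, 28 and 23 of the 33 lay above 0.

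Neighbouring ORFs also resembled each other. Between features of adjacent ORFs without a Pol III neighbour the scores correlated at Pearson r = 0.273, 0.318 and 0.103 over 302 centromere-near pairs, and at 0.133, 0.213 and 0.086 over 3700 to 3702 pairs elsewhere. At 10 ORFs apart the values were 0.145, 0.298 and 0.019 over 201 centromere-near pairs and 0.084, 0.108 and 0.082 elsewhere. The likeness at 30 min hardly fell over 10 ORFs near the centromeres, and at 120 min it was small at either distance. These are descriptions, since pairs share features, arrays and chromosomes. Without features with a Pol III gene next on either side, the ORF's orientation toward the next gene at higher coordinates made no comparable difference. Medians lay between -0.08 and 0.04 in all columns for convergent (108), divergent (110) and tandem genes (92 on the Watson and 75 on the Crick strand). Orientation toward the gene at lower coordinates was not examined.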

How the data were processed

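Competitive hybridizations of immunodepleted against input chromatin were deposited as 1 column of values for each of 3 conditions. Per the labels, replicates were averaged after they had been normalized to a list of genes. The deposited values were treated as a score without a stated base or direction, since they lay near 0 with both signs. Before centring, the column medians were -0.00875 (untreated), 0.0527 (30 min) and 0.0168 (120 min). Which genes were listed, how background and spots were handled, and the design and genome build of the array are facts not given in the sources used here. A normalization to a gene list sets the zero of each column, so levels are relative to the column median.

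The median over measured features was subtracted from each column, and changes are differences of centred scores. Limits were 3 robust SDs of the column, where the robust SD is the median absolute deviation scaled to match the SD of a normal distribution. Features were named and put in gene order with a RefSeq gene table of assembly R64, whose coordinates were not used as the array's. Pol III genes were tRNA genes, SNR6, SNR52, SCR1, RPR1 and the 5S genes. There was 1 column for each condition, so no test was made and groups are described by counts and medians beside those of all features. Genes were named if they had number 001, if they were among the 5 highest or lowest of a column or change, or among the 5 highest or lowest at 120 min of those with a Pol III gene next at higher coordinates. Others, among them the rest of the low features at 120 min, were named after their values were seen. The members and lists were chosen with earlier results of these data known. Alternatives changed the centring, the spread, the members or the limit, and a median was called moved when it left the order-statistic 95% interval over features of the median as reported. The scripts were tested on simulated data. No sequences are shown. Python 3.11.15, pandas 2.3.3, numpy 2.4.6, scipy 1.17.1 and matplotlib 3.10.9 were used.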

Additional observations from a re-analysis of the deposited data

How the results depend on the processing

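No paired analysis was possible because each condition has 1 averaged column, and for the same reason no replicate could be left out. Among recomputed medians and counts over all centromere-near features 94 stayed as reported, in that medians kept within the interval of the reported median and counts within 1.5 times the reported count, and 20 moved. Some of the 94 could not move. Scaling to equal spread also scales the limits, and the limit of the untreated column leaves the untreated counts unchanged. Medians near 0 could change sign. Without centring the median at 30 min was 0.0632 and the change to it 0.0655, by construction. With each chromosome centred separately 3 features lay above the limit in untreated cells. With quantile normalization 3 lay below it at 30 min and 2 above and 10 below it at 120 min, against 10 and 12. For numbers 001 to 005 alone the untreated median was -0.0516 and the change from 30 to 120 min -0.0139, each of the opposite sign to the value over all numbers, and with fewer features counted 0 lay above and 1 below the limit in untreated cells and 0 above and 2 below at 120 min. Without features next to Pol III genes 0 lay above it in untreated cells and 2 at 120 min. A limit of 2.5 robust SDs gave 6 above and 5 below in untreated cells, 3 below at 30 min and 16 above at 120 min. The limit of the untreated column gave 2 below at 30 min, and 18 above and 19 below at 120 min. Other causes of these moves were not tested. Leaving out chromosome III, an alternative chosen after seeing the data, moved none of the medians or counts of the whole group. Of the values for named genes and classes 288 stayed and 30 moved, all of the latter under equal spread, quantile normalization or the innermost numbers, where the change of chromosome III from 30 to 120 min went from 0.01 to -0.17. The depth of the arrays is unknown.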
